A study of Mus musculus with 3 samples.

Results

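Astrocytes and ependymal cells were taken from single-cell RNA-Seq libraries of EYFP-sorted mouse hindbrain as 113 of the 8082 droplets that held at least 3000 UMIs and at most 20% mitochondrial UMIs. A UMI (unique molecular identifier) stands for 1 captured transcript. The members were chosen by their own counts. Syt1, a neuronal gene, had to be at 0 UMIs, and Cldn5, an endothelial gene, at no more than 2. The ependymal side needed at least 2 UMIs of Ccdc153 and 1 of Tmem212, transcripts of ciliated ependymal cells, and held 18 droplets. The astrocyte side needed at least 2 UMIs each of the water channel gene Aqp4 and of Slc1a3, which encodes the glutamate transporter GLAST, and held 95 droplets. A further rule placed the 6 droplets that met both conditions on the ependymal side. Because the sides were selected on counts of the same droplets, every contrast between them is a description without a test, and the levels of the selecting genes are not findings.

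In GiprEYFP mice, Cre made from Gipr turns on an EYFP reporter, and the Glp1rEYFP mice are labelled in the same way through Glp1r. The cells came from male mice 4 to 6 weeks old, with the hindbrains of 4 to 6 animals pooled in each suspension, and were sorted for EYFP and a nuclear dye before droplet capture. There was 1 GiprEYFP library and there were 2 Glp1rEYFP libraries, so genotype and library cannot be told apart and no test between genotypes was made. EYFP made through Cre marks a cell whose ancestors had used the gene as well as a cell that uses it now. The deposited counts summed to 62705038 UMIs in GiprEYFP replicate 1, 27277448 in Glp1rEYFP replicate 1 and 13568994 in Glp1rEYFP replicate 2. In that order, 4712, 2185 and 1185 droplets passed the UMI and mitochondrial limits, with medians of 8110, 9306 and 7979 UMIs. Among the passing droplets, pairs of libraries shared 3, 2 and 0 barcodes, and no member's barcode occurred among the members of another library.

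Astrocytes are the glia that take up glutamate and GABA, buffer potassium and water, are joined by gap junctions and supply lipoproteins to their surroundings. Ependymal cells line the ventricles and the central canal and move cerebrospinal fluid with tufts of motile cilia. A motile cilium holds a ring of doublet microtubules around a central pair, with dynein arms as motors and radial spokes as regulators, and is built by intraflagellar transport. Foxj1 and the Rfx factors are the transcription factors known to switch on this program, and Rfx factors bind a DNA element called the X-box.

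The astrocyte side made up 0.488% (95% exact Clopper-Pearson interval 0.310 to 0.732%) of the passing droplets in GiprEYFP replicate 1, where it held 23 of 4712. It held 46 of 2185 (2.11%, 1.55 to 2.80%) in Glp1rEYFP replicate 1 and 26 of 1185 (2.19%, 1.44 to 3.20%) in Glp1rEYFP replicate 2. The ependymal side held 8 (0.170%, 0.0733 to 0.334%), 7 (0.320%, 0.129 to 0.659%) and 3 (0.253%, 0.0522 to 0.738%) droplets in the same order. The share of the astrocyte side was thus lower in the GiprEYFP library than in both Glp1rEYFP libraries, with intervals that did not overlap, while the intervals of the ependymal shares overlapped. All intervals given here cover counting error only. The median member of the astrocyte side held 22230, 5580 and 5252 UMIs, and that of the ependymal side 11505, 8927 and 10589. A sort on EYFP preceded these shares and can set them.

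At the edge of the rule, 26 droplets of the astrocyte side had exactly 2 UMIs of Aqp4 or of Slc1a3, 13 of them in the GiprEYFP library. Just outside, 43 droplets had 1 UMI of Aqp4 and enough Slc1a3, 42 of them in the GiprEYFP library, and 41 had 1 UMI of Slc1a3 and enough Aqp4. On the ependymal side 1 droplet sat at the limit, with 2 UMIs of Ccdc153 and 9 of Tmem212. Outside it, 1 droplet had 1 UMI of Ccdc153 beside 8 of Tmem212, and 2 droplets lacked Tmem212. The ban on Syt1 removed 3 droplets that met the marker minimums, and the limit on Cldn5 removed 1.

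The label astrocyte did not hold for most of the 23 droplets of the GiprEYFP library. In 16 of them the 7 oligodendrocyte markers summed to between 914 and 3531 UMIs, or 583 to 883 of every 10000 UMIs. These 16 droplets held 2 to 4 UMIs of Aqp4, exactly 2 in 12 of them, and 2 to 6 of Slc1a3 in totals of 13925 to 44545 UMIs. Their astrocyte genes other than the selecting ones gave 63.8 to 144 of every 10000 UMIs, against 314 to 1319 in the 75 droplets of the astrocyte side that were not other-type droplets, as defined next. These 16 are therefore called here by their leading genes, as droplets with oligodendrocyte transcripts (at least 500 UMIs, a limit set after the values were seen). In all oligodendrocyte droplets of the 3 libraries (706, 352 and 192), Aqp4 was measured at 6.58, 10.9 and 6.45 UMIs per 1000000 (CPM) and Slc1a3 at 62.7, 30.3 and 27.9 CPM.

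Members with at least 3 markers of another cell type at 2 UMIs or more are called other-type droplets. On the astrocyte side they numbered 17 of 23, 3 of 46 and 0 of 26 in GiprEYFP replicate 1, Glp1rEYFP replicate 1 and Glp1rEYFP replicate 2. Besides the 16 with oligodendrocyte transcripts, 1 GiprEYFP droplet held smooth muscle transcripts, with 132 UMIs of the smooth muscle actin gene Acta2. In Glp1rEYFP replicate 1, 2 droplets held 632 and 741 UMIs of oligodendrocyte markers, and 1 held 564 UMIs of Acta2. On the ependymal side 2 of 8 droplets of the GiprEYFP library, and none elsewhere, were of this kind. Without these droplets 75 remained on the astrocyte side (6, 43 and 26) and 16 on the ependymal side (6, 7 and 3), and values without them are given below beside the GiprEYFP values they moved most. The share of the astrocyte side in the GiprEYFP library then came to 0.127% (0.0467 to 0.277%).

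**Figure D1:**
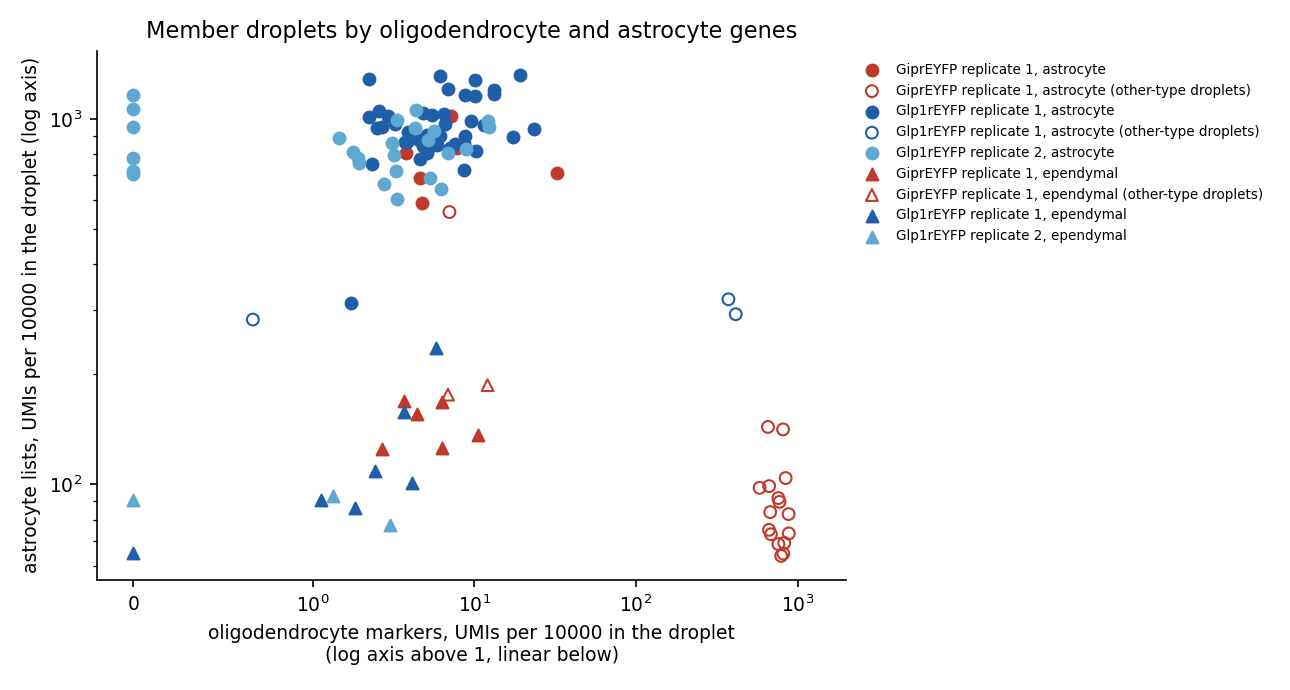
Each point is 1 member droplet; the x axis gives UMIs of the 7 oligodendrocyte markers and the y axis UMIs of the astrocyte lists (selecting genes left out), both per 10000 UMIs of the droplet on log axes (the x axis is linear below 1). Red marks the GiprEYFP library and blue the Glp1rEYFP libraries, circles the astrocyte and triangles the ependymal side, and open symbols other-type droplets; the 16 open red circles at 583 to 883 oligodendrocyte UMIs per 10000 lie apart from the filled circles.

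The ependymal side carried transcripts of the motile cilium in every library. Foxj1, the factor that drives motile cilia, was at 500 CPM (47 UMIs in all 8 droplets; 95% exact Poisson interval 368 to 666 CPM) in GiprEYFP replicate 1. It was at 513 CPM (43 UMIs in all 7 droplets; 372 to 692 CPM) in Glp1rEYFP replicate 1 and at 426 CPM (19 UMIs in all 3 droplets; 256 to 665 CPM) in Glp1rEYFP replicate 2. On the astrocyte side Foxj1 was at 12.6, 20.5 and 0 CPM, the first and second from 6 UMIs each. In the GiprEYFP library 5 other-type droplets held 1 of these UMIs each. In Glp1rEYFP replicate 1 a single droplet held 4 of them. Without that droplet and the other-type droplets the level there was 8.64 CPM. Foxj1 was among the names given with the rule but was not counted by it, and every ependymal droplet held it.

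The promoters of cilium genes are shown because the measured genes can be set beside the X-box through them. Of the genes on the ependymal lists 100 were matched to promoters of the RefSeq annotation (build GRCm38.p6), each window running from 250 bases before to 50 after a start. The X-box word GTTGCCA, which reads TGGCAAC on the other strand, occurred on either strand in 21.2% of the 113 promoters of those genes. It occurred in 4.38% of all 32851 promoters and in 1.89% of the 53 promoters of astrocyte-list genes. The forkhead word GTAAACA occurred in 4.42% of the promoters of the ependymal lists, 3.65% of all and 3.77% of those of the astrocyte lists. The words do not overlap. Among the ependymal-list genes that passed the rule of size given below, 20.4% of 49 promoters held the X-box word and 6.12% the forkhead word. The promoters of Ccdc153 and Tmem212 held neither word. A match is a description of letters, not of a bound site. Tekt1 and Pifo each have a second promoter window, which held no X-box word and is not shown. The X-box word is in capitals below in promoters of Tekt1 (a filament protein inside the doublets), Pifo (a ciliary protein), Drc1 (a nexin-dynein subunit) and Cfap161 (a protein inside the doublets), each written 5′ to 3′ on the strand of the gene.
Tekt1, chr11:72361833-72362132, minus strand: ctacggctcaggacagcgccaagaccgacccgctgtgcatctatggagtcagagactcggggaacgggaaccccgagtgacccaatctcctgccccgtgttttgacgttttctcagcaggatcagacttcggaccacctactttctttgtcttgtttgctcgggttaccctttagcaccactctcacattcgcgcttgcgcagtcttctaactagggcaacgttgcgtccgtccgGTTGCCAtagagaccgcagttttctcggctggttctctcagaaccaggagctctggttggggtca
Pifo, chr3:106001448-106001747, minus strand: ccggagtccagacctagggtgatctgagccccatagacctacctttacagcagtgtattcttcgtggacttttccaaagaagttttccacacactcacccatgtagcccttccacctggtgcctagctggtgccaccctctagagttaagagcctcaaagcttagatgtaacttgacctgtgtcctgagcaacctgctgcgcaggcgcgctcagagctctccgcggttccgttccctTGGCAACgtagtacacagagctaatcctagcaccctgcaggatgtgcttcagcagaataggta
Drc1, chr5:30281143-30281442, plus strand: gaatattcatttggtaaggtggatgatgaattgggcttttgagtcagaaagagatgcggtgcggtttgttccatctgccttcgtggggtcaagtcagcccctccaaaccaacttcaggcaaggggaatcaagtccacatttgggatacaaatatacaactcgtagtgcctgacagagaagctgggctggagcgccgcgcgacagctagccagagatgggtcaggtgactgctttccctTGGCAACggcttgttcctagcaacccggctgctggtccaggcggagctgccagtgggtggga
Cfap161, chr7:83794790-83795089, minus strand: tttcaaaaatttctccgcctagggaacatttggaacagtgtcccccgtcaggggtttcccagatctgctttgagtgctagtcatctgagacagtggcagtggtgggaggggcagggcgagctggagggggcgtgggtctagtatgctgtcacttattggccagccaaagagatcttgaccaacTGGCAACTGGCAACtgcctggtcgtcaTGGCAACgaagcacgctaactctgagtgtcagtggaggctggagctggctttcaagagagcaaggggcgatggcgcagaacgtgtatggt
In Tekt1 the word began 15 bases before the start, in Pifo 13 and in Drc1 12, and the 3 words of Cfap161 began 67, 60 and 40 bases before it.

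Genes were called higher on a side by a rule of size, with UMIs summed per side and library and scaled to CPM. The level had to differ at least 4-fold in the same direction in all 3 libraries, with at least 30 UMIs on the higher side, a UMI in at least 20% of its droplets and at least 2 times the level of empty droplets, which held at most 100 UMIs. Sums under 3 UMIs entered as 3. Of 5087 genes tested for size, 232 (4.56%) were higher on the ependymal side and 16 (0.315%) on the astrocyte side. Without other-type droplets the counts were 86 and 58, of which 82 and 7 were shared with the first calls. Of 117 genes on the ependymal lists 55 were higher on the ependymal side and 0 on the astrocyte side. All 65 with 30 UMIs on a side had them on the ependymal side and 11 of them also on the astrocyte side, so most entered only through the side where they were high and their direction was largely set by that minimum. The counts below are therefore given over all genes counted. Without other-type droplets 29 of the 117 passed, against 86 of 2619 genes tested (3.28%), and on the other side 58 of the 2619 (2.21%). At these depths 4 of the 117 were at 0 UMIs on the ependymal side and 19 on the astrocyte side.

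Among the dynein arms, the motors of the cilium, 4 of 10 outer-arm genes and 6 of 14 genes of the inner arms and nexin-dynein complex were higher on the ependymal side, and 5 and 8 had under 30 UMIs on either side. The outer-arm heavy chain gene Dnah9 was at 373, 191 and 202 CPM in GiprEYFP replicate 1, Glp1rEYFP replicate 1 and Glp1rEYFP replicate 2, and at 4.19, 6.82 and 0 CPM on the astrocyte side. Dnai1, an outer-arm intermediate chain gene, was at 287, 251 and 202 CPM. Among inner-arm genes the heavy chain gene Dnah12 was at 532, 478 and 493 CPM on the ependymal and 18.9, 6.82 and 0 CPM on the astrocyte side. Dnah6, also an inner-arm heavy chain gene, was at 564, 275 and 359 CPM against 2.09, 17.1 and 0 CPM. Dnah9, Dnah12 and Dnah6 kept to their side in each library, and the levels of Dnah12 differed between libraries by less than their counting intervals. The ruler gene Ccdc39, which sets the spacing of the arms, was at 458, 394 and 336 CPM against 25.1, 44.3 and 29.8 CPM. Without other-type droplets 3 outer-arm and 3 inner-arm genes passed, and the astrocyte side of the GiprEYFP library was at 41.7 CPM for Dnah9, 187 CPM for Dnah12 and 167 CPM for Ccdc39, from 2, 9 and 8 UMIs.

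Of 18 radial spoke and central pair genes 13 passed, and 10 without other-type droplets, and the other 5 had under 30 UMIs on either side. Rsph1, a spoke head gene, was at 1267, 1457 and 1771 CPM on the ependymal side and at 14.7, 78.4 and 0 CPM on the astrocyte side in GiprEYFP replicate 1, Glp1rEYFP replicate 1 and Glp1rEYFP replicate 2. Spef2, of the central pair, was at 756, 525 and 336 CPM against 29.3, 20.5 and 0 CPM. Cfap54, also of the central pair, was at 756, 370 and 89.7 CPM. Of these, Rsph1 was highest in Glp1rEYFP replicate 2, while Spef2 and Cfap54 were highest in the GiprEYFP library. Of 18 genes for proteins on or inside the doublets 12 passed (3 without other-type droplets) and 5 had under 30 UMIs on either side. Among those that passed was Enkur, which binds calcium channels and calmodulin in sperm, at 671, 645 and 740 CPM against 16.8, 20.5 and 7.45 CPM. Mns1, another doublet protein gene, was at 703, 406 and 471 CPM against 29.3, 27.3 and 0 CPM (229 CPM in the GiprEYFP library without other-type droplets). Tekt1 was at 490, 418 and 336 CPM against 16.8, 20.5 and 14.9 CPM, and Cfap161 at 202, 143 and 157 CPM. Enkur and Tekt1 held their order of sides in all 3 libraries, each with a UMI in all 18 ependymal droplets. Without other-type droplets the astrocyte side of the GiprEYFP library was at 146 CPM for Rsph1, 208 CPM for Spef2 and 167 CPM each for Enkur and Tekt1.

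Intraflagellar transport genes also serve the primary cilium that many cells bear, and of 17 counted 6 passed the rule of size (2 without other-type droplets) and 6 had under 30 UMIs on either side. Dynlrb2, a roadblock-type dynein light chain gene, was at 1342, 1075 and 941 CPM against 20.9, 37.5 and 0 CPM. On the astrocyte side of the GiprEYFP library it was at 208 CPM without other-type droplets, and Ift22 at 229 CPM. Ift22 was at 341, 263 and 336 CPM against 50.3, 30.7 and 22.3 CPM, and Ift88, which is needed for cilia of all kinds, at 170, 107 and 112 CPM. The genes for cytoplasmic assembly of dynein arms were near the limit of 30 UMIs. Of 10 counted 2 were tested and passed, Dnaaf4 (181, 263 and 112 CPM) and Pih1d2 (160, 155 and 179 CPM), and 0 passed without other-type droplets.

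The regulators above the cilium genes were low. Of 9 on that list Foxj1 alone reached 30 UMIs. Rfx3, a factor of the X-box, was at 128, 95.5 and 89.7 CPM on the ependymal and 29.3, 30.7 and 22.3 CPM on the astrocyte side. Myb was at 63.9, 107 and 44.8 CPM and Trp73 at 10.7, 71.6 and 44.8 CPM. Mcidas and the centriole genes Ccno and Cdc20b, which act while cilia are first built, were at 0 UMIs in all 18 ependymal droplets. None of the 5 centriole genes reached 30 UMIs, and at 18 droplets a level under 3 UMIs was not detectable.

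Of 16 other ependymal transcripts counted 11 passed, and 7 without other-type droplets. Mia, a small secreted protein gene, was at 2098, 2555 and 3250 CPM on the ependymal side and at 2.09, 116 and 7.45 CPM on the astrocyte side in GiprEYFP replicate 1, Glp1rEYFP replicate 1 and Glp1rEYFP replicate 2. Rarres2, which encodes the secreted attractant chemerin, was at 2183, 2030 and 3429 CPM against 20.9, 85.3 and 22.3 CPM, with 238, 207 and 221 CPM in empty droplets. Fam183b, a cilium-associated gene, was at 1235, 1075 and 1457 CPM against 29.3, 27.3 and 0 CPM (292 CPM in the GiprEYFP library without other-type droplets). These 3 genes were higher on the ependymal side in each library. Hdc, the histamine-making enzyme, was at 234, 59.7 and 134 CPM, from 22, 5 and 6 UMIs. Mia and Rarres2 were in all 18 ependymal droplets and Hdc in 8 of 8, 3 of 7 and 2 of 3. Outside the lists, the 10 genes with the largest ratio in the library where it was smallest were Ecrg4 (68.0-fold), 1700012B09Rik, Aebp1, Odf3b, Ascc1, Tm4sf1, Mlf1, 1700094D03Rik, Stoml3 and 1700007K13Rik (22.9-fold). All but Mlf1 passed also without other-type droplets. Ecrg4, a secreted peptide precursor gene, was at 1565, 3176 and 4348 CPM against 23.0, 37.5 and 0 CPM. Without other-type droplets the astrocyte side of the GiprEYFP library was at 229 CPM for Ecrg4, 187 CPM for Rarres2 and 20.8 CPM for Mia. Stoml3, a stomatin-family membrane protein gene, had no UMI in the 95 droplets of the astrocyte side and was at 245, 513 and 538 CPM on the ependymal side.

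**Figure D2:**
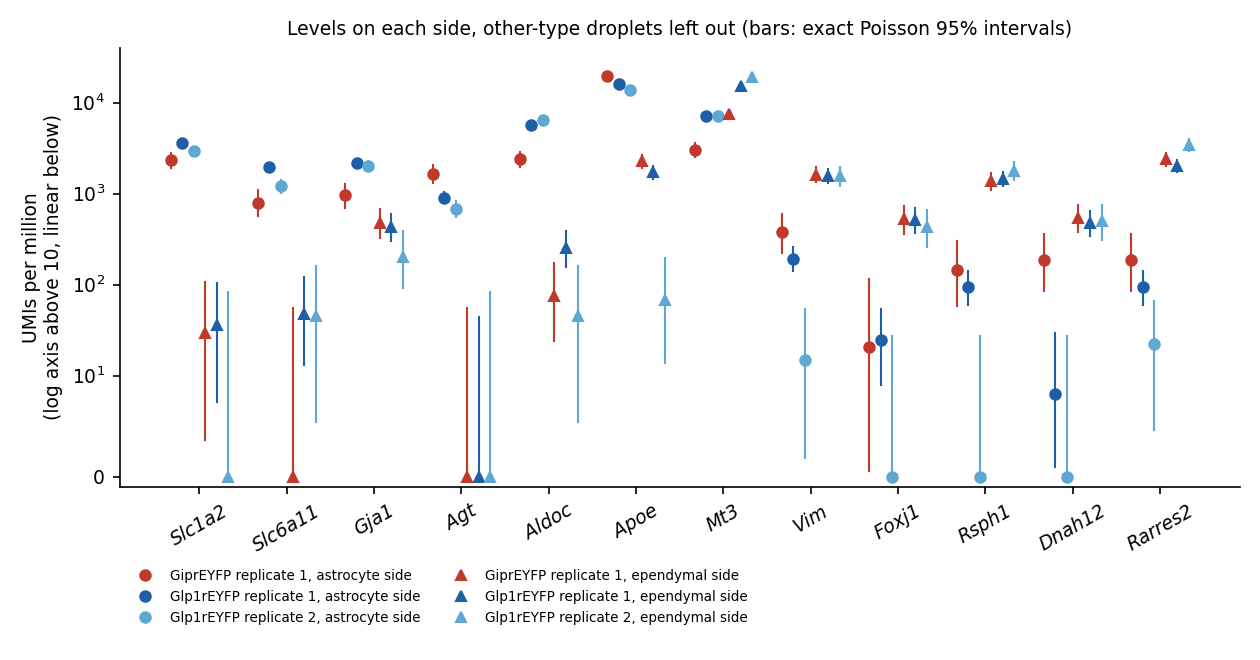
Levels of 12 genes in UMIs per 1000000 (log axis above 10, linear below) with other-type droplets left out, with circles for the astrocyte and triangles for the ependymal side, red for GiprEYFP replicate 1 and blue for the Glp1rEYFP replicates; bars are exact Poisson 95% intervals. Slc1a2, Slc6a11, Agt and Aldoc lie higher as circles in each library, and Foxj1, Rsph1, Dnah12 and Rarres2 higher as triangles.

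Counted droplet by droplet after thinning each to 3000 UMIs, the 16 ependymal droplets that were not other-type droplets held a UMI of 26 to 57 of the 117 ependymal-list genes, with a median of 43.5. The range was 45 to 57 in GiprEYFP replicate 1, 26 to 57 in Glp1rEYFP replicate 1 and 32 to 43 in Glp1rEYFP replicate 2. On the astrocyte side, 4 of the 6 GiprEYFP droplets that were not other-type droplets held 10, 15, 16 and 29 of these genes. In Glp1rEYFP replicate 1, 1 of 43 droplets held 27, and all others of that library and of Glp1rEYFP replicate 2 held 0 to 5. The 4 GiprEYFP droplets had 13 to 31 UMIs of Slc1a3 and 1 to 16 of Slc1a2 in totals of 7705 to 10845 UMIs. The droplet of Glp1rEYFP replicate 1 had 42 UMIs of Aqp4, 27 of Gfap, 4 of Foxj1 and 2 of Ccdc153, and lacked Tmem212, so that the rule left it on the astrocyte side. The 4 GiprEYFP droplets held no UMI of Ccdc153 and 1 of Foxj1, and all 7 of their Tmem212 UMIs lay in the droplet with 29 ependymal-list genes. These 5 droplets are called ependymal-gene droplets here, by a limit of 10 genes chosen after the values were seen. The GiprEYFP droplet at the limit held 29.9 UMIs of the ependymal-list genes per 10000, close to the 25.4 of the highest droplet under it, and the other 3 held 64.5 to 151. Astrocyte-list genes gave more in all 5 droplets, at 590 to 829 UMIs per 10000 in the 4 GiprEYFP droplets. The droplet of Glp1rEYFP replicate 1 held 314 of them per 10000, against 205 of the ependymal-list genes. The name therefore does not give the leading genes of these droplets. A droplet of 2 cells was not told apart from 1 cell with both sets of genes.

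**Figure D3:**
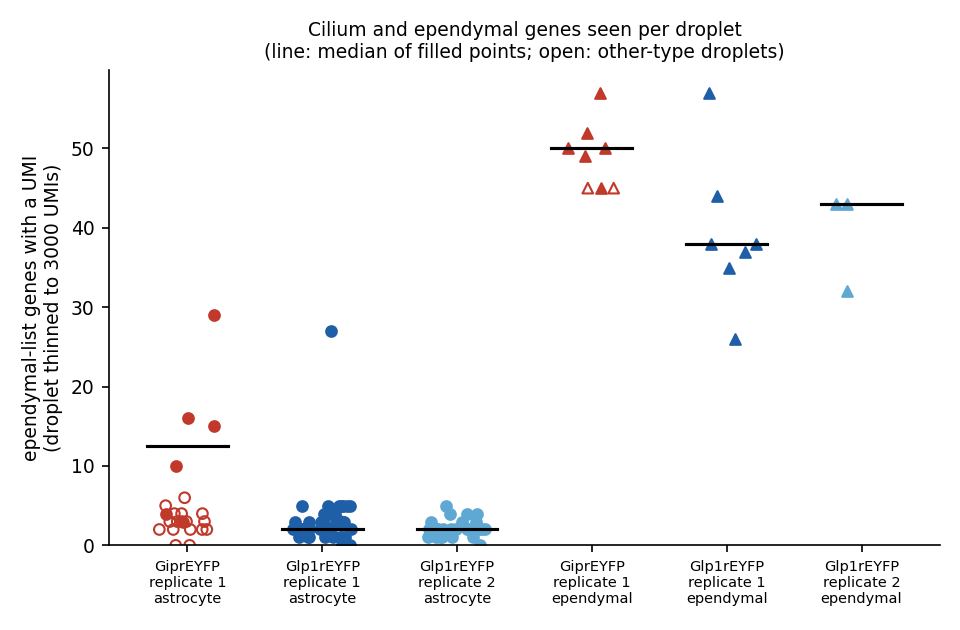
Each point is 1 member droplet thinned to 3000 UMIs, and the y axis counts the ependymal-list genes with a UMI; columns are side and library, lines are medians of the filled points and open points are other-type droplets. All 16 filled ependymal points lie at 26 or above, and 5 filled astrocyte points lie at 10 or above.

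The astrocyte side of the Glp1rEYFP libraries carried the genes of glutamate and GABA uptake, ion handling and lipid transport, and the GiprEYFP library carried most of them at lower levels, nearer to the others once its other-type droplets were left out. Of 51 genes on the astrocyte lists 3 (Slc1a2, Aldoc and Agt) were higher on the astrocyte side and 0 on the ependymal side. All 45 with 30 UMIs on a side had them on the astrocyte side, and 21 of them also on the ependymal side. The rest entered only through the astrocyte side, and their direction was largely set by that minimum. Without other-type droplets 18 of the 51 counted were higher on the astrocyte side. Among all genes tested, a base that leaves out genes under the minimum, 58 of 2619 were (2.21%). In the GiprEYFP library those values pooled the 4 ependymal-gene droplets, which held 39561 UMIs, and 2 droplets with 8445 UMIs, in which 3 UMIs came to 355 CPM. Levels in these 2 droplets, a split added after the data were seen, are given beside the results that they turned. The droplet at the limit of 10 ependymal-list genes, with 7705 UMIs, was not among them, and levels with it were not computed.

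Of 8 genes for uptake and metabolism of transmitters 1 passed, and 4 without other-type droplets (among them Slc1a2, Slc6a11 and Slc7a10). Slc1a2, which encodes the main glutamate transporter GLT-1, was at 492, 3175 and 2919 CPM on the astrocyte side of GiprEYFP replicate 1, Glp1rEYFP replicate 1 and Glp1rEYFP replicate 2. Without other-type droplets the GiprEYFP value was 2333 CPM (1921 to 2807), and on the ependymal side Slc1a2 was at 21.3, 35.8 and 0 CPM. The GABA transporter gene Slc6a11 was at 107, 1695 and 1199 CPM on the astrocyte side, at 792 CPM in the GiprEYFP library without other-type droplets, and at 0, 47.8 and 44.8 CPM on the ependymal side. Slc7a10, an amino acid exchanger gene, was at 75.4, 1439 and 1690 CPM with no UMI in the 18 ependymal droplets, and at 312 CPM in the GiprEYFP library without other-type droplets. With all members and without other-type droplets these 3 transporters were lowest in the GiprEYFP library, but its droplets differed. Slc1a2 was at 986 CPM (39 UMIs; 701 to 1348) in the 4 ependymal-gene droplets and at 8644 CPM (73 UMIs; 6776 to 10870) in the other 2, above both Glp1rEYFP libraries. Slc6a11 was at 455 and 2368 CPM, and Slc7a10 at 75.8 and 1421 CPM, in the same order, so the ependymal-gene droplets held the lower level of each. Glul, glutamine synthetase, went the other way, at 3702, 1691 and 1541 CPM, and stood at 1042 CPM in the GiprEYFP library without other-type droplets.

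With all members the ion and connexin genes named here were also lowest in the GiprEYFP library. Atp1b2, a beta subunit gene of the sodium pump in glia, was at 329, 3840 and 4356 CPM (2083 CPM in the GiprEYFP library without other-type droplets) and at 202, 95.5 and 44.8 CPM on the ependymal side. Slc4a4, a sodium bicarbonate cotransporter gene, was at 316, 2796 and 2301 CPM (1875 CPM without) against 138, 191 and 202 CPM. None of 7 ion genes passed with all members, and 3, Atp1b2 and Slc4a4 among them, passed without other-type droplets. Gjb6, the connexin 30 gene, was at 85.9, 607 and 879 CPM with no UMI in the ependymal droplets, and was the connexin that passed without other-type droplets (1 of 3 counted; 0 with all members). Without other-type droplets Gjb6 was at 604, 687 and 879 CPM, so that GiprEYFP replicate 1 and Glp1rEYFP replicate 1 lay close together. In the 2 GiprEYFP droplets that were not ependymal-gene droplets, Atp1b2 was at 6039 CPM (4496 to 7940), Slc4a4 at 2724 CPM and Gjb6 at 829 CPM, none of them below both Glp1rEYFP libraries. Gja1, the connexin 43 gene, was at 161, 1886 and 2003 CPM (958 CPM in the GiprEYFP library without other-type droplets, and 1776 CPM in those 2 droplets) and was also present on the ependymal side, at 618, 430 and 202 CPM.

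Of 11 secreted and lipid carrier genes 1 passed (Agt) with all members and 6 without other-type droplets (Agt, Apoe, Bcan, Cst3, Htra1 and Sparcl1). Apoe, the main lipoprotein of astrocytes, was at 2425, 13855 and 13723 CPM, and at 19581 CPM (18349 to 20874) in the GiprEYFP library without other-type droplets. On the ependymal side Apoe was at 3077, 1707 and 67.2 CPM. Agt, angiotensinogen, was at 226, 778 and 678 CPM, at 1646 CPM in the GiprEYFP library without other-type droplets, and had no UMI on the ependymal side. For Apoe and Agt the GiprEYFP library was thus the lowest with all members and the highest without other-type droplets. In its 4 ependymal-gene droplets Apoe was at 21790 CPM and in the other 2 at 9236 CPM (7301 to 11530), the latter below both Glp1rEYFP libraries, while Agt was at 1466 and 2487 CPM. Clu, clusterin, was present on both sides, at 343, 2148 and 2063 CPM (2979 CPM without, from 3463 CPM in the ependymal-gene droplets and 711 CPM in the other 2) and 2864, 2304 and 2465 CPM.

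Among 11 identity genes Aldoc, a glycolytic enzyme gene, was the only one past the rule of size, at 473, 4849 and 6374 CPM (2396 CPM without other-type droplets) against 53.2, 251 and 44.8 CPM. S100b, a calcium-binding protein gene and the second highest of the list, was at 769, 508 and 559 CPM (354 CPM without other-type droplets) against 447, 549 and 583 CPM. The transcription factor genes Sox9 and Sox2 were not higher on the astrocyte side with all members. Sox9 was at 87.9, 474 and 253 CPM on the astrocyte and 490, 693 and 314 CPM on the ependymal side, and Sox2 at 140, 348 and 283 CPM against 628, 585 and 650 CPM. In the GiprEYFP library without other-type droplets Sox9 was at 583 CPM and Sox2 at 521 CPM on the astrocyte side. Gfap, the intermediate filament gene of fibrous astrocytes, was detected in 5 of 6, 8 of 43 and 0 of 26 droplets when other-type droplets were left out, at 396, 169 and 0 CPM, with a limit of 22.3 CPM for 3 UMIs in Glp1rEYFP replicate 2. In Glp1rEYFP replicate 1, 27 of the 41 Gfap UMIs came from 1 droplet, the ependymal-gene droplet of that library, and without it Gfap was at 60.5 CPM, a value added after the data were seen. In the 2 GiprEYFP droplets that were not ependymal-gene droplets Gfap was at 947 CPM, from 8 UMIs. No receptor gene of 11 passed with all members, and Fgfr3, Ntsr2 and Ptprz1 passed without other-type droplets. Gpr37l1, an orphan receptor gene and the highest of the list, was at 155, 2513 and 3366 CPM (979 CPM without) against 256, 95.5 and 44.8 CPM. Ptprz1, a receptor phosphatase gene, was at 189, 1534 and 1571 CPM (1521 CPM without, from 1264 CPM in the ependymal-gene droplets and 2724 CPM in the other 2) against 341, 131 and 67.2 CPM.

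Outside the lists the 10 genes with the largest ratio in the library where it was smallest were Selenop (11.9-fold), Msmo1, Phyhipl, Pla2g7, Cmtm5, Fabp5, Gpr37, Paqr8, Qk and Plpp3 (4.48-fold). Without other-type droplets 4 of the 10 passed (Msmo1, Phyhipl, Pla2g7 and Plpp3) and 6 did not, Selenop and Gpr37 among them. Selenop, the secreted selenium carrier, was at 1771, 778 and 894 CPM against 149, 11.9 and 0 CPM, and at 312 CPM in the GiprEYFP library without other-type droplets. Gpr37, an orphan receptor gene, was at 515, 320 and 402 CPM, and at 20.8 CPM, from 1 UMI, in the GiprEYFP library without them. Pla2g7, which inactivates platelet-activating factor, was at 258, 2987 and 3261 CPM, and at 1687 CPM without them. In the GiprEYFP library 831 of 846 UMIs of Selenop and 245 of 246 of Gpr37 lay in other-type droplets, against 42 of 123 of Pla2g7.

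Between libraries, the astrocyte side of the GiprEYFP library differed at least 4-fold from both Glp1rEYFP libraries in 179 genes that were higher (5.09% of 3518 tested) and 300 that were lower (8.53%). Without other-type droplets 7 genes were higher and 34 lower of 1977 tested, of which 2 and 29 were shared with the first calls. The 5 higher genes with the largest ratio were Anln, Gjb1, Anks1b, Klk6 and Cldn11. Cldn11, a tight junction gene of myelin, was at 2452, 130 and 7.45 CPM in GiprEYFP replicate 1, Glp1rEYFP replicate 1 and Glp1rEYFP replicate 2, and Gjb1, the connexin 32 gene of oligodendrocytes, at 1256, 58.0 and 0 CPM. Without other-type droplets Cldn11 fell to 62.5 CPM and Gjb1, Anln and Klk6 to 0 in the GiprEYFP library. None of these 5 genes passed then.

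The 5 lower genes with the largest ratio passed with and without other-type droplets. Igfbp2, a binding protein of insulin-like growth factors, was at 2.09, 730 and 1117 CPM, with no UMI in the 6 GiprEYFP droplets that were not other-type droplets, where 3 UMIs would be 62.5 CPM. Vegfa, the vascular growth factor gene, was at 12.6, 593 and 633 CPM (83.3 CPM without) and Hsd11b1, which reactivates glucocorticoids, at 8.38, 426 and 529 CPM (62.5 CPM without). The glycolytic gene Pfkp was at 6.28, 293 and 447 CPM, and Cyp26b1, which breaks down retinoic acid, at 0, 263 and 320 CPM. Both were at 0 in the 6 GiprEYFP droplets. Between the Glp1rEYFP libraries Igfbp2 differed beyond its counting intervals (635 to 834 and 945 to 1311 CPM), and those of Vegfa, Hsd11b1, Pfkp and Cyp26b1 overlapped. The GiprEYFP value without other-type droplets rested on 6 droplets, 4 of which were ependymal-gene droplets. In the other 2 droplets Vegfa and Hsd11b1 were at 355 CPM each (3 UMIs; 73.3 to 1038), an interval that holds their Glp1rEYFP values, and Igfbp2, Pfkp and Cyp26b1 had no UMI, with an upper limit of 437 CPM that lay below both Glp1rEYFP values for Igfbp2 alone.

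On the ependymal side, of 778 genes tested 6 were higher (0.771%) and 8 lower (1.03%) in the GiprEYFP library by the same rule, and without other-type droplets 6 and 8 of 723, with 4 and 7 shared. In the order of the libraries, 5 of 8, 1 of 7 and 0 of 3 ependymal droplets also met the astrocyte condition. With these left out 1 gene was higher and 4 were lower, while the levels given below include them. Pcp4, a calmodulin-binding protein gene, was at 42.6, 1075 and 1726 CPM, from 4, 90 and 77 UMIs. Folr1, a folate receptor gene that was on the choroid plexus list, was at 0, 215 and 291 CPM. Pde6d, a carrier of prenylated proteins to the cilium, was at 149, 1158 and 1165 CPM, Dner, a Notch ligand gene, at 31.9, 406 and 471 CPM and Lin7a, a scaffold gene, at 31.9, 322 and 359 CPM. These 5 were low in the 8 GiprEYFP droplets and present in at least 6 of 7 droplets of Glp1rEYFP replicate 1 and 2 of 3 of Glp1rEYFP replicate 2.

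In the other direction Ucma, a cartilage matrix protein gene, was at 1299, 0 and 0 CPM, from 122 UMIs in 5 of the 8 GiprEYFP droplets (58 UMIs in 3 of the 6 that were not other-type droplets). S100a6, a calcium-binding protein gene, was at 735, 131 and 89.7 CPM and occurred in 4 of the 8. Cavin2, a caveola coat gene, was at 532, 47.8 and 0 CPM, Gpld1, a phospholipase gene, at 458, 47.8 and 67.2 CPM and Kbtbd11 at 394, 59.7 and 0 CPM. Cavin2, Gpld1 and Kbtbd11 had a UMI in all 8 GiprEYFP droplets. Kbtbd11 no longer passed without other-type droplets, at 312 CPM. Ucma was also seen on the astrocyte side of each library, at 18.9, 98.9 and 67.0 CPM.

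**Figure D4:**
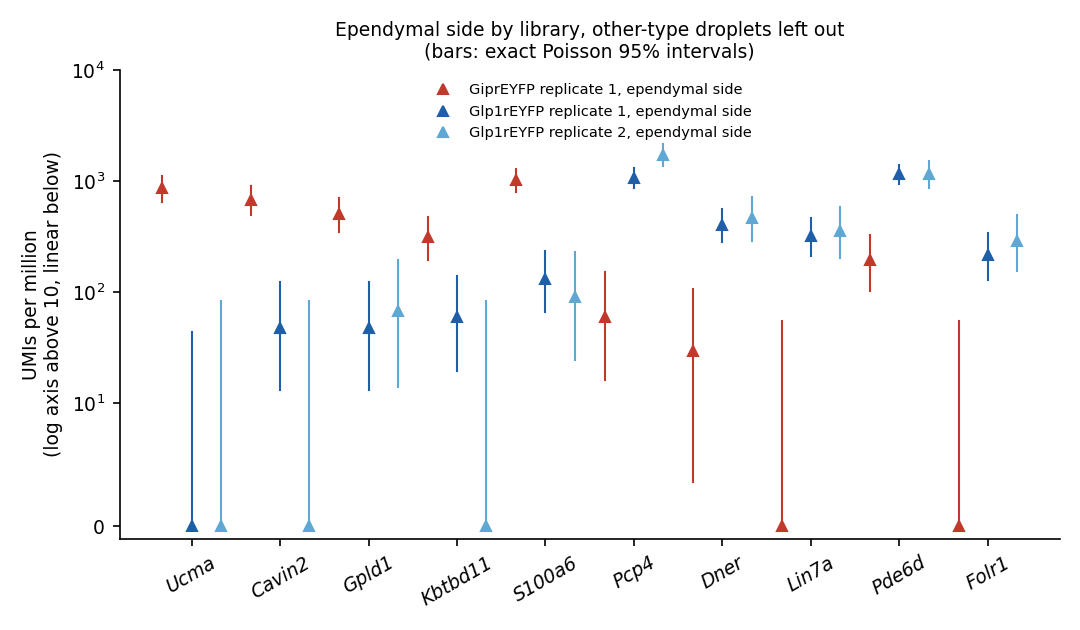
Levels on the ependymal side in UMIs per 1000000 (log axis above 10, linear below) of the 10 genes with the largest ratio between the GiprEYFP library (red) and both Glp1rEYFP libraries (blues), with other-type droplets left out; bars are exact Poisson 95% intervals. Ucma, Cavin2, Gpld1, Kbtbd11 and S100a6 are higher in red, and Pcp4, Dner, Lin7a, Pde6d and Folr1 in blue. Droplets that also met the astrocyte condition are included.

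The reporter that the cells were sorted for was low. EYFP stood at 226, 92.1 and 142 CPM on the astrocyte side of GiprEYFP replicate 1, Glp1rEYFP replicate 1 and Glp1rEYFP replicate 2, against 244, 156 and 170 CPM in empty droplets of the same libraries. Without other-type droplets it was at 479, 103 and 142 CPM, which is 197% (125 to 295%), 66.0% (42.7 to 97.4%) and 83.4% (50.2 to 130%) of the empty droplets. On the ependymal side it was at 341, 227 and 112 CPM, and without other-type droplets at 158% (104 to 232%), 146% (87.6 to 227%) and 66.1% (21.5 to 154%) of them. The astrocyte side of the Glp1rEYFP libraries was thus at or below the level of free RNA. In the GiprEYFP library the interval lay above it on both sides, but not with all members, at 92.8% (76.2 to 112%) on the astrocyte and 140% (95.7 to 197%) on the ependymal side. On the astrocyte side 22 of the 23 EYFP UMIs behind that value lay in the 4 ependymal-gene droplets (556 CPM). These 4 held 6, 8, 8 and 0 UMIs, with the 0 in the droplet at the limit of 10 genes. The other 2 droplets held 1 UMI (118 CPM, with an upper limit of 660 CPM), so that without the ependymal-gene droplets a level above free RNA was not detectable there. Acta2 bears on the comparison with free RNA. Without other-type droplets it was at 2.60%, 1.23% and 0.845% of empty droplets on the astrocyte side and at 6.48%, 1.17% and 0.535% on the ependymal side. Smooth muscle markers were among those that set other-type droplets apart, so these low values were partly set by that choice. With all members they were 18.6%, 13.8% and 0.845% on the astrocyte and 6.6%, 1.17% and 0.535% on the ependymal side. Members other than other-type droplets thus held only a small part of the smooth muscle transcripts of the free RNA.

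Before thinning, EYFP had a UMI in 21 of 23, 22 of 46 and 13 of 26 droplets of the astrocyte side and in 7 of 8, 7 of 7 and 2 of 3 of the ependymal side. Thinned to 3000 UMIs and without other-type droplets, it did so in 4 of 6 (66.7%), 11 of 43 (25.6%, 13.5 to 41.2%) and 9 of 26 (34.6%, 17.2 to 55.7%) astrocyte droplets and in 5 of 6, 4 of 7 and 1 of 3 ependymal droplets. The share in oligodendrocyte droplets, thinned alike, was 36.0%, 32.1% and 36.5%, in endothelial droplets 8.58%, 23.7% and 29.4%, and in all passing droplets that were not members, both of these kinds included, 62.9%, 53.2% and 57.7%. Their median depths before thinning were 23534, 11894 and 11018 UMIs for oligodendrocyte and 7024, 7828 and 7642 UMIs for endothelial droplets. Astrocyte droplets of the Glp1rEYFP libraries were thus at or near the share of oligodendrocyte and endothelial droplets. Gipr gave 1 UMI on the ependymal side of the GiprEYFP library and no other in the members, and Glp1r gave 0 in all 113. For Glp1r, 0 of 46 astrocyte droplets of Glp1rEYFP replicate 1 has an exact upper limit of 7.71% of droplets with a UMI (6.52% if taken as 3 droplets of 46), and 0 of 3 ependymal droplets of Glp1rEYFP replicate 2 an exact upper limit of 70.8%.

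**Figure D5:**
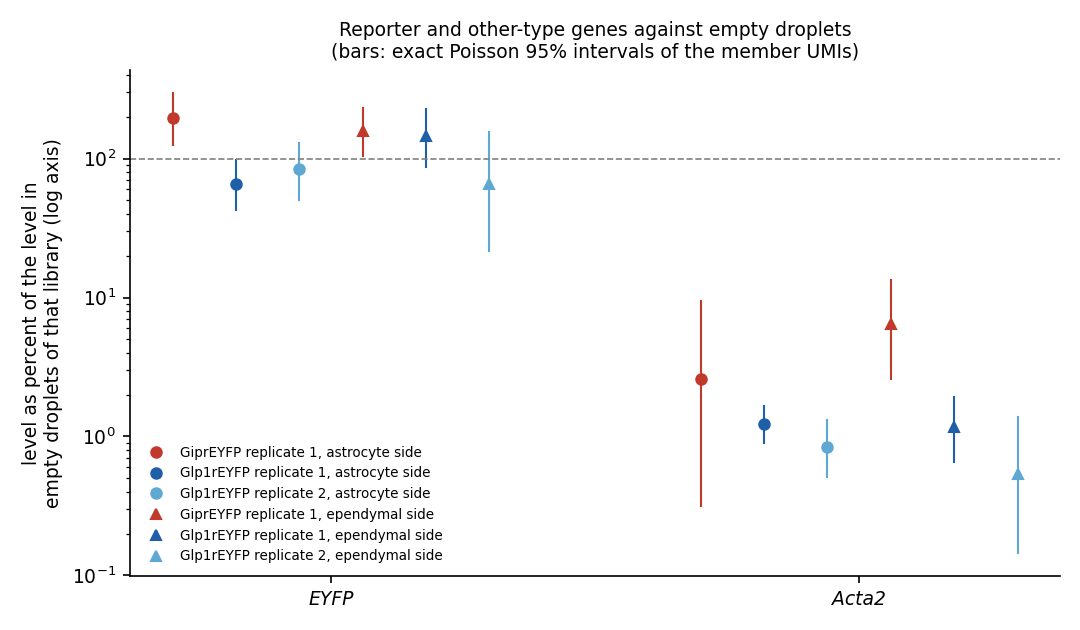
The level of EYFP and Acta2 in members, other-type droplets left out, as a percent of the level in empty droplets of the same library (log axis; dashed line 100%), with circles for the astrocyte and triangles for the ependymal side and exact Poisson 95% intervals of the member UMIs. EYFP lies near the dashed line, and the Acta2 values lie below 10% in all 6 sets.

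Markers of other cell types differed between the libraries. The 7 oligodendrocyte markers summed to 66584, 5231 and 372 CPM on the astrocyte side and to 617, 275 and 202 CPM on the ependymal side. Without other-type droplets they summed to 771, 658 and 372 CPM. The 5 smooth muscle markers summed to 647, 4297 and 231 CPM on the astrocyte side (62.5, 300.1 and 231 CPM without), led by Acta2. The 7 pericyte markers summed to 2215, 23.9 and 0 CPM on the ependymal side, led by Vtn at 1480 CPM, and to 490 CPM in the GiprEYFP library without other-type droplets, where empty droplets held Vtn at 4435 CPM. Of the 6 oligodendrocyte precursor markers Olig1, which the paper took as a marker of oligodendrocytes, led on the astrocyte side. It was at 676, 372 and 320 CPM there with all members, and had no UMI on the ependymal side. No member was an other-type droplet by the precursor markers. The part of other cell types in the contrasts was not tested beyond the values without other-type droplets.

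The remaining types were represented by few of their markers. The 7 neuron markers other than Syt1 summed to 4.19, 10.2 and 22.3 CPM on the astrocyte side and to 0, 310 and 134 CPM on the ependymal side, all of the latter from Stmn2, with the other 6 at 0 there. The 6 endothelial markers other than Cldn5 summed to 35.6, 235 and 305 CPM on the astrocyte side, nearly all from Slco1c1, a thyroxine carrier gene that astrocytes also use. The 6 microglial markers gave at most 11.9 CPM on any side and library, and the 6 fibroblast-like markers at most 102 CPM. The 6 choroid plexus markers summed to 10.7, 346 and 291 CPM on the ependymal side, led by Folr1 in the Glp1rEYFP libraries, while Ttr, the most abundant choroid transcript, was at 0, 131 and 0 CPM there and at 6898 CPM in empty droplets of Glp1rEYFP replicate 1. The 7 tanycyte markers gave at most 89.7 CPM and the 3 markers of cerebrospinal fluid-contacting neurons at most 13.6 CPM. None of these lists had a gene past the rule of size on either side.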

How the data were processed

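Droplet-based 3′ libraries of EYFP-sorted hindbrain cells were analysed in 3 samples. The authors deposited raw count matrices of all barcodes as whole-number UMIs per gene, without normalization or cell filtering. The matrix headers name Cell Ranger 4, and the submitters' processing notes list Cell Ranger 6.1.2 and the build GRCm39. The files hold 32533 genes. Members, sides and the 32 gene lists (313 genes, 302 found: astrocyte, ependymal, other cell types, position, stress, reactive, metallothionein and incretin genes) were chosen with earlier results of these data known.

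UMIs were summed per side and library and scaled to UMIs per 1000000 (CPM), with exact Poisson and Clopper-Pearson 95% intervals. The rule of size, with its limits, is given with the results. Where both sides had at most 3 UMIs no ratio was formed. Named genes are those of the selecting rule, some of the highest of each list, the 10 outside the lists with the largest ratio in each direction between sides and the 5 between genotypes. Other list genes named with values (among them Hdc, Cfap161, Ift88, Sox9, Sox2 and Gfap) and the genes whose promoters are shown were chosen after their values were seen. Thinning used seed 1. No doublet caller was run, and droplets with at least 3 markers of another type at 2 UMIs or more were left out as an alternative. The scripts were tested on simulated data. No significance test was made. Python 3.11.15, numpy 2.4.6, scipy 1.17.1, pandas 2.3.3 and matplotlib 3.10.9 were used. Lists of incretin genes are reported through EYFP, Gipr and Glp1r; the other 5 had no UMI in the members. Depths and precision are given per library with the results. Results that rest on some of the listed genes are not reported here.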

Additional observations from a re-analysis of the deposited data

Results flagged for a closer look

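In 4 of the genes with 30 UMIs on a side, the contrast between the sides was at least 4-fold one way in the GiprEYFP library and at least 4-fold the other way in both Glp1rEYFP libraries. For none of them was the difference tested. Grb14, an adaptor gene of insulin signaling, had a log2 ratio of astrocyte over ependymal level of 3.58 in the GiprEYFP library, with 381 CPM on the astrocyte side. All 182 of those UMIs lay in other-type droplets, and the 6 remaining droplets held none. In the Glp1rEYFP libraries Grb14 was at 179 and 157 CPM on the ependymal and at 20.5 and 0 CPM on the astrocyte side. Rcan2, a calcineurin regulator gene, had a ratio of 2.11 from 66 UMIs, again all in other-type droplets, and was at 167 and 112 CPM on the ependymal side of the Glp1rEYFP libraries.

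Slc39a12, a zinc transporter gene, had a ratio of -2.20 in the GiprEYFP library, with 202 CPM on the ependymal and 44.0 CPM on the astrocyte side. Without other-type droplets it had 16 of 67378 UMIs on the ependymal and 12 of 48006 on the astrocyte side. In the Glp1rEYFP libraries it was at 634 and 670 CPM on the astrocyte and at 23.9 and 22.4 CPM on the ependymal side. Gpld1, the phospholipase gene, had a ratio of -2.49, with 458 CPM on the ependymal and 81.7 CPM on the astrocyte side, and stood at 505 and 729 CPM without other-type droplets. In the Glp1rEYFP libraries Gpld1 was at 481 and 335 CPM on the astrocyte and at 47.8 and 67.2 CPM on the ependymal side.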

How the results depend on the processing

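No paired analysis between genotypes was made, since a replicate number does not show that libraries belong together. The sides were compared within each library. The reported settings were set against 15 alternatives, and single-library values turned under some. Without other-type droplets Gpld1 in the GiprEYFP library went from 458 CPM on the ependymal and 81.7 CPM on the astrocyte side to 505 and 729 CPM. On its astrocyte side Glul (3702 to 1042 CPM) and Selenop (1771 to 312 CPM) went from the highest to the lowest of the libraries, and Apoe (2425 to 19581 CPM), Agt (226 to 1646 CPM), Clu (343 to 2979 CPM), Sox9 (87.9 to 583 CPM) and Sox2 (140 to 521 CPM) from the lowest to the highest. By the values given above, Gpr37 and S100b on that side also went from the highest to the lowest. Leaving out also the ependymal-gene droplets of the GiprEYFP library, which was added after the data were seen, left 2 droplets. It took Apoe (9236 CPM) and Clu (711 CPM from 6 UMIs, 261 to 1546 CPM) from the highest to the lowest. Slc1a2 (8644 CPM), Atp1b2 (6039 CPM), Slc6a11 (2368 CPM) and Ptprz1 (2724 CPM) went from the lowest to the highest. Intervals ran from 4496 to 7940 CPM for Atp1b2, 1447 to 3658 CPM for Slc6a11 and 1726 to 4087 CPM for Ptprz1. They held the values of Glp1rEYFP replicate 1 treated alike (4538, 2060 and 1796 CPM). The left-out droplet at the limit of 10 genes held 28 UMIs of Clu and 11 of Atp1b2 in 7705. Ranks were not computed with it kept. Leaving those droplets out placed EYFP (118 CPM), Sox9 (474 CPM), Slc4a4 (2724 CPM) and Gjb6 (829 CPM) between the Glp1rEYFP libraries. Counts are given as genes higher on the astrocyte and the ependymal side (16 and 232 as reported), genes higher and lower in the GiprEYFP library on the astrocyte side (179 and 300) and on the ependymal side (6 and 8). With other-type droplets left out they were 58 and 86, then 7 and 34. With droplets of both sides left out they were 8 and 153, with 1 and 4 on the ependymal side. With each marker minimum 1 UMI higher, 27 genes were higher on the astrocyte side, and 75 and 155 differed on the astrocyte side of the GiprEYFP library. Median of ratios scaling gave 32 genes higher on the astrocyte side. A minimum of 10 UMIs, and no minimum, each gave 15 genes lower on the ependymal side of the GiprEYFP library. A 2-fold rule gave 72 genes higher on the astrocyte side, 317 higher on the astrocyte side of the GiprEYFP library, and 37 and 41 on its ependymal side. After thinning to 3000 UMIs, which leaves fewer UMIs, the counts were 5 and 33, then 36 and 80, then 0 and 1.

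Leaving out 1 library at a time, the members ranged from 49 to 72 on the astrocyte and from 10 to 15 on the ependymal side. The genes higher on the astrocyte side ranged from 19 to 119, the highest without GiprEYFP replicate 1, and were 41 without Glp1rEYFP replicate 2. Genes higher on the ependymal side ranged from 158 to 211. In the GiprEYFP library the counts ranged from 219 to 229 higher and from 156 to 247 lower on the astrocyte side, and from 8 to 18 higher on the ependymal side, with 6 lower in each case. The counts of 156 and 18 came without Glp1rEYFP replicate 1. The causes were not tested. With 3 to 8 ependymal droplets a library, 3 UMIs came to between 31.9 and 67.2 CPM, and a lower level was not detectable.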

Other observations

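Position genes were low on both sides. The 21 Hox genes, which are used in the hindbrain and spinal cord, summed to 149, 513 and 784 CPM on the ependymal side of GiprEYFP replicate 1, Glp1rEYFP replicate 1 and Glp1rEYFP replicate 2, and to 64.9, 78.4 and 59.6 CPM on the astrocyte side. Hoxb8 was at 0, 95.5 and 224 CPM on the ependymal side, from 0, 8 and 10 UMIs, and had no UMI on the astrocyte side. The 10 forebrain and midbrain factors gave at most 22.4 CPM on any side and library. None of these genes reached 30 UMIs on a side.

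The metallothionein genes, which bind zinc and copper, were high on both sides. Mt3 was at 7783, 15270 and 18870 CPM on the ependymal side and at 423, 6094 and 7201 CPM on the astrocyte side, where the GiprEYFP value was 3020 CPM without other-type droplets (3387 CPM in the 4 ependymal-gene droplets and 1303 CPM in the other 2). Mt1 was at 3301, 6125 and 7642 CPM on the ependymal and 712, 8051 and 11899 CPM on the astrocyte side, and Mt2 at 362, 1695 and 1950 CPM against 58.6, 986 and 1541 CPM. Without other-type droplets the GiprEYFP values on the astrocyte side were 3437 CPM for Mt1 and 292 CPM for Mt2. On the ependymal side all 3 genes were lowest in the GiprEYFP library. None was past the 4-fold rule between the sides.

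Of the 10 genes known to rise in reactive astrocytes, Vim, an intermediate filament gene, led on the ependymal side at 1491, 1552 and 1546 CPM, and on the astrocyte side stood at 90.0, 576 and 14.9 CPM. In Glp1rEYFP replicate 1, 122 of its 169 UMIs on the astrocyte side came from 1 other-type droplet. The 12 immediate early and heat shock genes summed to 222, 453 and 179 CPM on the astrocyte side and 1171, 609 and 829 CPM on the ependymal side, and to 430 CPM in the GiprEYFP ependymal droplets when other-type droplets were left out. No gene of these lists passed the rule of size.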
